A study of Drosophila mojavensis with 137 samples.

Results

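In virgin males of the cactus fly Drosophila mojavensis, 80 transcripts differed in level between flies from Punta Prieta and flies from Las Bocas while virgin females of the same populations differed little in them. These 80, of 14528 transcripts measured, were chosen by their deposited log2 expression values alone. Transcripts first had to lie within 2 log2 units between virgin females and virgin males. Their difference between mated and virgin flies had to lie below 0.2 in 2 averages. These were Punta Prieta females over both diets and agria males over both populations. Single groups could differ by more, and mated Las Bocas females and mated organ pipe males were not limited. Their population difference in virgin females, averaged over both rearing diets, had to lie below 0.15. Of the 8481 transcripts inside those limits, the 80 with the largest population difference in virgin males were taken, 25 higher and 55 lower in Punta Prieta. The population and sex differences in virgin flies therefore describe the list and are not tested. Mated males reared on agria cactus entered the choice only through the mean of their 2 populations, so their population difference could be tested.

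Drosophila mojavensis is a desert fruit fly whose larvae feed in the rotting tissue of columnar cacti, and its populations on the mainland and on the Baja California peninsula use different main hosts. In Drosophila, much of the genome is expressed at different levels in females and males, largely through the gonads and the soma's own sex-specific tissues. Expression can also diverge between populations in 1 sex alone, because genes shared by both sexes can be regulated by sequences or cells that act in only 1 of them.

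The study measured whole adult wild-type flies on 137 one-colour arrays and asked how their transcripts depend on population, cactus, sex, mating and egg-to-adult development time. Flies came from Las Bocas in Sonora or from Punta Prieta in Baja California, each population represented by 1 named source, so source and population cannot be told apart. They were raised in bottle cultures on fermented agria or organ pipe cactus and collected as virgin or mated females or males, after development times of 14 to 18 days. The 18 days are on the labels of 6 arrays, while the design text of the series stops at 17. Virgin males numbered 13 arrays from Las Bocas and 12 from Punta Prieta on agria, and 13 and 15 on organ pipe. Virgin females numbered 11 and 11 on agria, and 8 and 12 on organ pipe. Mated agria males numbered 5 arrays per population and mated agria females 6 from Las Bocas and 5 from Punta Prieta. Mated organ pipe males numbered 1 from Las Bocas and 11 from Punta Prieta, and mated organ pipe females 2 and 7. In whole flies, fewer cells of a type and less RNA per cell cannot be told apart. The transcript IDs are not paired here with gene names, so transcripts are given by ID, at most 2 in each direction for a comparison, and without a role.

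The deposited values ran from 5.83 to 15.89 log2 units with 0 missing, and array medians from 11.24 to 11.50. A sex score was taken as the mean of the 328 transcripts higher in virgin females by over 2 minus the mean of the 1431 higher in virgin males by over 2. It lay between 1.95 and 3.76 on 61 female arrays and between -3.30 and -2.57 on 74 male arrays. Against their labels, 1 array labelled as a mated Las Bocas organ pipe female of 16 days (replicate 1) had a score of -2.69, and 1 labelled as a mated Punta Prieta organ pipe male of 16 days (replicate 2) had 3.24. Neither was used by the rule, and neither is in the agria comparisons. The free-text description of the first of them, like that of the other mated Las Bocas organ pipe female array, speaks of virgin Punta Prieta males, against its title and its other labels. Among mated Las Bocas agria females, 3 of 6 arrays had scores of 1.95 to 2.14, against 2.81 to 3.28 on the other 3. Among virgin Punta Prieta organ pipe males, 2 arrays had the scores nearest to 0 of the male arrays, -2.62 and -2.57, and 64 of the 80 transcripts stayed in the list without them. Their SD over all values was also low, at 1.67 and 1.68, beside 1.79 to 1.89 on the other arrays of that group.

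By the values that chose them, the 80 transcripts differed between virgin male populations by 0.41 to 1.42 log2 units, a fold of 1.33 to 2.68. The last transcript inside the list stood at 0.4103 and the first outside at 0.4095, so the list has no natural edge there. Its median size was 0.48, beside 0.085 over all 14528 transcripts, and 13 of the 80 exceeded 0.6. The limit on females removed 183 further transcripts whose male difference was at least as large, and 176 of those had the same sign of difference in females. On the female limit the edge ran between 0.148 for the highest member and 0.153 for the lowest of those removed.

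The choice used the average over the diets, and each diet can be described on its own. In virgin agria males the difference in the list's direction had a median of 0.53 and ran from 0.18 to 1.46. In virgin organ pipe males the median was 0.48 and the range 0.18 to 1.38. In virgin females the same signed difference had a median of 0.029 on agria and 0.0031 on organ pipe, and its size reached 0.33 on each diet. The median size in females was 0.12 on each diet, beside 0.084 over all transcripts on agria and 0.14 on organ pipe. For each development time with arrays of both populations, the male median lay between 0.40 and 0.61. At 17 days on organ pipe 68 of 80 transcripts kept the direction, at 18 days 71, and at the other 5 combinations of diet and day between 77 and 80.

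The rule set no limit on level, and it held the sex difference in virgin flies only within 2 log2 units. The transcripts lay on the dim side, with mean levels of 7.14 to 13.38 and a median of 10.42, beside 11.38 over all transcripts. Of the 25 higher in Punta Prieta males, 11 fell among the dimmest 25% of all transcripts and 2 among the brightest 25%, and of the 55 lower, 19 and 8. Between virgin females and virgin males 55 of the 80 differed by less than 0.5 and 9 by more than 1, with 37 higher in females. The shares of all transcripts for these counts are not given here, so nothing is read from them. The median difference, females minus males, was -0.024 among the members, 0.35 over the 8481 transcripts inside the limits and 0.26 over all. The mean of the females did not generally lie between the male populations. In virgin agria flies it did so for 31 of the 80, in virgin organ pipe flies for 30 and in mated agria flies for 24. It was nearer to Las Bocas males for 39, 42 and 47 transcripts in these 3 sets of flies and nearer to Punta Prieta males for 41, 38 and 33. Without the 3 mated Las Bocas female arrays of low sex score the last split was 44 and 36.

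The largest difference belonged to FBtr0167236, whose level in virgin Las Bocas males ran from 6.43 to 7.20 on agria, with a median of 6.71. In virgin Punta Prieta males on agria it ran from 7.66 to 8.99, with a median of 8.15, so the populations did not overlap. On organ pipe the Las Bocas males ran from 6.44 to 7.21, with a median of 6.81, and the Punta Prieta males from 6.96 to 9.18, with a median of 8.26, an overlap at the low end of Punta Prieta. Virgin females stayed low in every group: their medians lay at 6.53 and 6.67 for Las Bocas and at 6.61 and 6.66 for Punta Prieta, on agria and organ pipe in turn. On the medians, Las Bocas males lay with the females of both populations and Punta Prieta males above them. FBtr0167236 was the dimmest member, with a mean level of 7.14. Over all transcripts the lowest mean was 6.18 and the median 11.38. Whether the low groups share a level or only lie near the lower limit of the arrays was not tested.

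Of the others named by the same rule, FBtr0175053 averaged 8.47 ± 0.20 (SD, n = 13) in Las Bocas and 9.38 ± 0.28 (SD, n = 12) in Punta Prieta virgin agria males. FBtr0174584 averaged 11.70 ± 0.32 (SD, n = 13) and 10.97 ± 0.29 (SD, n = 12) in the same 2 groups, the largest difference among the 55 lower transcripts over both diets. FBtr0174094 averaged 9.96 ± 0.15 (SD, n = 13) and 9.12 ± 0.20 (SD, n = 12). It was the most female-biased of the 80, with virgin females 1.91 log2 units above virgin males. In virgin agria males all arrays of one population lay above all of the other for 5 of the 25 higher transcripts and 8 of the 55 lower ones. Over all transcripts 0.234% were separated that way in the higher direction and 0.262% in the lower, and nothing is read from the members' count because these arrays chose them.

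**Figure D1:**
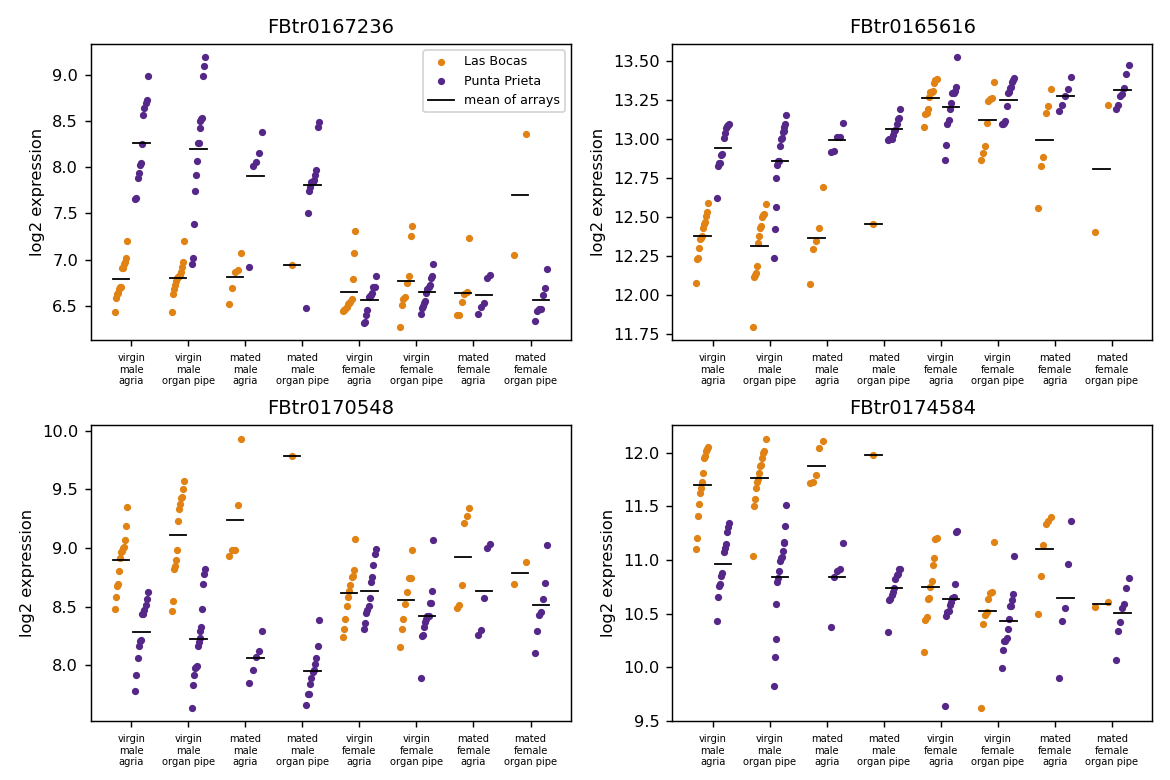
Log2 expression (vertical axes) of 4 of the 80 transcripts on every array, in 8 classes of flies by mating, sex and diet, with Las Bocas in orange and Punta Prieta in purple; each point is 1 array and each bar the mean of its arrays. FBtr0167236 stood above 7.5 in most Punta Prieta males and near 6.6 in most females. The single Punta Prieta mated organ pipe male point at 6.47 and the Las Bocas mated organ pipe female point at 8.36 are the arrays whose sex score went against their label.

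For each array, the 80 transcripts were also averaged into a score. The score is the mean over transcripts of the deviation from the mean of the 16 classes of flies, signed so that the direction of Punta Prieta virgin males is positive. In virgin males, which set the signs, the score ran from -0.38 to -0.16 on the Las Bocas arrays and from 0.069 to 0.53 on the Punta Prieta arrays. In mated agria males it was -0.18 ± 0.077 (SD, n = 5) for Las Bocas, from -0.27 to -0.10, and 0.24 ± 0.052 (SD, n = 5) for Punta Prieta, from 0.16 to 0.30. The 2 mated male groups did not overlap. In mated agria females it was -0.065 ± 0.091 (SD, n = 6) for Las Bocas and -0.035 ± 0.076 (SD, n = 5) for Punta Prieta, and their arrays overlapped, at -0.17 to 0.098 and -0.14 to 0.044. No p is given for the score, since its members were chosen with the virgin males.

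**Figure D2:**
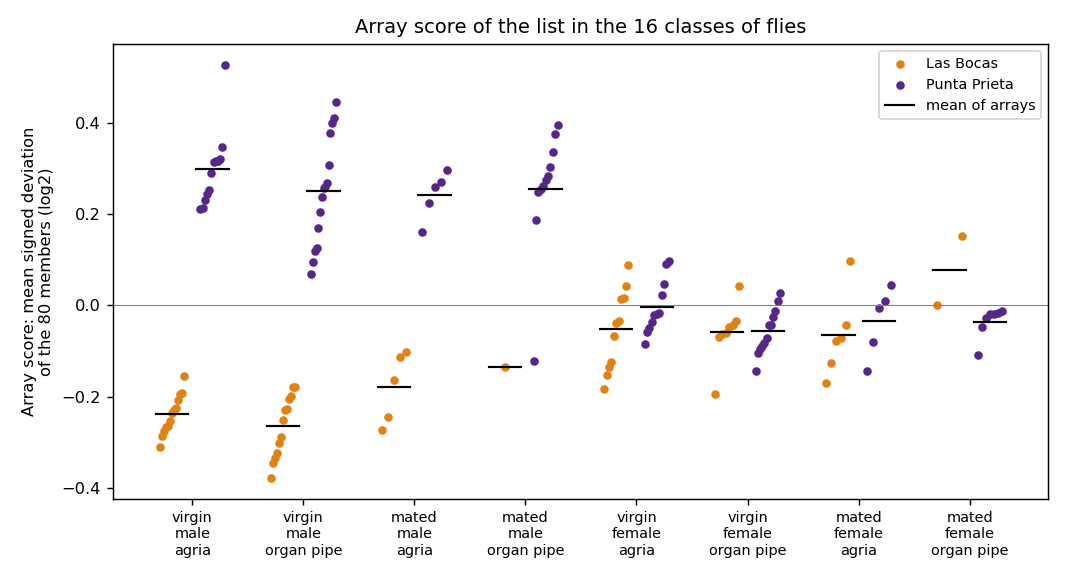
Array score of the 80 transcripts (vertical axis, mean signed deviation in log2 units) in the 8 classes of mating, sex and diet, with Las Bocas in orange and Punta Prieta in purple; points are arrays and bars their means. Male arrays of the populations separate at 0 except for 1 Punta Prieta mated organ pipe male array at -0.12, and the female arrays of both populations mix around 0, with 1 Las Bocas mated organ pipe female array at 0.15.

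The question of the main comparison was whether the difference seen in virgin males was also present in mated males, which had no part in choosing its direction. In mated agria males 78 of the 80 transcripts differed in the direction seen in virgin males, 23 of the 25 higher and 55 of the 55 lower ones. After adjustment over all 14528 transcripts, 17 of them passed limma's test at an adjusted p of 0.05, and all 17 had their direction. They were 5 of the 25 higher transcripts, where 0.468% of all transcripts were called higher, and 12 of the 55 lower ones, where 0.502% of all transcripts were called lower. At an unadjusted p under 0.05 there were 51 members, all in their direction, and 2296 transcripts in all.

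The median difference was 0.42 among the 25 higher transcripts and -0.36 among the 55 lower ones, against 0.0011 over all transcripts, whose median size was 0.12. A member's standard error had a median of 0.14, beside 0.11 over all transcripts. All 5 Punta Prieta arrays lay above all 5 Las Bocas arrays for 11 of the 25 higher transcripts, where 1.89% of all transcripts did. All 5 lay below for 16 of the 55 lower ones, where 1.93% of all transcripts did. The number past the threshold moved with single arrays: it was 26 without the 14 day Las Bocas array, when 620 of all transcripts passed, and 6 to 13 without any 1 of the others.

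**Figure D3:**
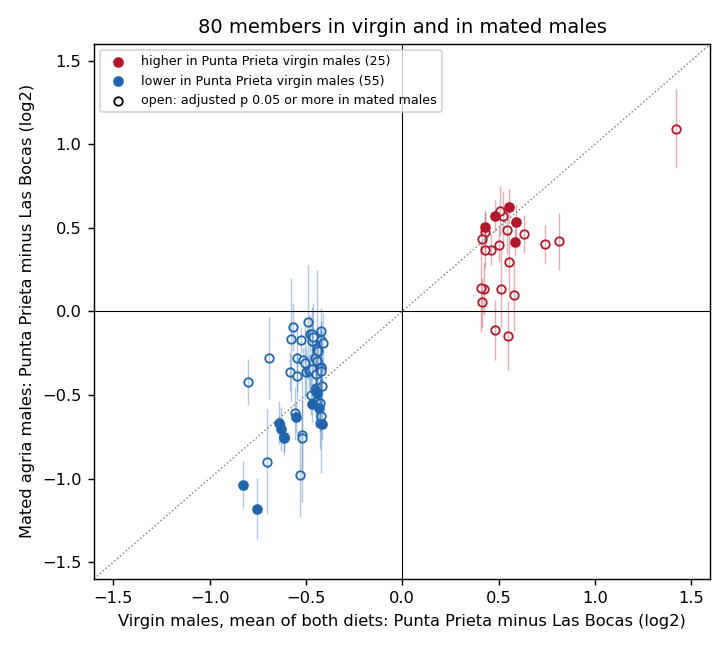
Population difference (Punta Prieta minus Las Bocas, log2) of the 80 transcripts in virgin males, mean of both diets (horizontal axis), and in mated agria males (vertical axis), with standard errors from limma as vertical bars; red marks the 25 higher and blue the 55 lower transcripts, and filled points are the 17 with adjusted p under 0.05 in mated males. All but 2 of the 25 higher transcripts have the same sign on both axes, and the gap from -0.41 to 0.41 on the horizontal axis is set by the rule.

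Among the lower transcripts past the threshold, FBtr0170548 had the largest difference. Its level was 8.93, 8.98, 8.99, 9.36 and 9.93 on the 5 Las Bocas mated agria male arrays and 7.85, 7.96, 8.07, 8.12 and 8.29 on the 5 Punta Prieta ones. Every Punta Prieta array lay below every Las Bocas array. The difference was -1.18 with a standard error of 0.18, a fold of 2.27, at an adjusted p of 0.0162 in limma's test, and at 0.053 without the Punta Prieta 15 day array, replicate 2. In mated agria females of the same populations the arrays overlapped, at 8.49 to 9.34 in Las Bocas and 8.26 to 9.04 in Punta Prieta.

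FBtr0174584 followed, with levels of 11.72, 11.73, 11.79, 12.04 and 12.11 in Las Bocas mated agria males. In Punta Prieta they were 10.37, 10.84, 10.90, 10.92 and 11.16. The groups did not overlap, and the difference was -1.04 with a standard error of 0.14, a fold of 2.05, at an adjusted p of 0.0113 in limma's test, and the call held without any 1 of the 10 arrays. In mated agria females the levels ran from 10.50 to 11.40 in Las Bocas and from 9.90 to 11.36 in Punta Prieta, all below the Las Bocas males.

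Among the higher transcripts past the threshold, FBtr0165616 stood at 12.07, 12.29, 12.34, 12.43 and 12.69 in Las Bocas mated agria males. In Punta Prieta it stood at 12.92, 12.92, 13.01, 13.01 and 13.10, above every Las Bocas array and within a narrow range. The difference was 0.63 with a standard error of 0.11, a fold of 1.54, at an adjusted p of 0.0229 in limma's test. Leaving out any 1 of 6 arrays (Las Bocas 15 days, replicates 2 and 3, and 16 days; Punta Prieta 14 days and 15 days, replicates 2 and 3) ended the call, at adjusted p of 0.0501 to 0.074. Mated agria females stood higher still in Punta Prieta, at 13.18 to 13.40. In Las Bocas they stood at 13.17, 13.21 and 13.32 on 3 arrays and at 12.56, 12.82 and 12.89 on the 3 arrays of low sex score. Apart from those 3 arrays, both male populations lay below all the females, with Punta Prieta males the nearer.

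FBtr0173269 stood at 10.41, 10.44, 10.53, 10.58 and 10.62 in Las Bocas mated agria males. In Punta Prieta it stood at 10.78, 11.02, 11.15, 11.20 and 11.27, again without overlap. The difference was 0.57 with a standard error of 0.097, a fold of 1.48, at an adjusted p of 0.0238 in limma's test. Leaving out any 1 of those 6 arrays or the Las Bocas 15 day array, replicate 1, ended the call, at adjusted p of 0.0546 to 0.0757. Mated agria females of both populations, at 10.25 to 10.72 and 10.36 to 10.50, lay near the Las Bocas males. The 2 higher transcripts thus differed in which male population lay nearer to the females.

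FBtr0167236, the extreme of the virgin males, stood at 6.52, 6.70, 6.87, 6.89 and 7.07 in Las Bocas mated agria males. In Punta Prieta 4 arrays stood at 8.01, 8.05, 8.16 and 8.38, and the 15 day array, replicate 1, at 6.92, inside the Las Bocas range. The difference was 1.09 with a standard error of 0.24, a fold of 2.13, and missed the threshold at an adjusted p of 0.0601 in limma's test. Without that array it was 1.34 at an adjusted p of 0.0011, and without the 14 day Las Bocas array 1.12 at 0.0461. Of the others that led the list in virgin males, FBtr0175053 was at 0.42 with a standard error of 0.17 and FBtr0174094 at -0.42 with a standard error of 0.14. Their differences in virgin males were 0.81 and -0.80, and neither passed in mated males, at adjusted p of 0.273 and 0.182 in limma's test. The 2 transcripts that did not keep their direction were FBtr0167315 and FBtr0163190, at -0.15 and -0.11, and neither passed.

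The populations were compared in the same way in mated agria females. The Punta Prieta arrays entered the rule through the limit on mating, so this comparison is only partly independent of the choice. No member, 0 of 80, passed limma's test at an adjusted p of 0.05, where 0.262% of all transcripts did. At an unadjusted p under 0.05 there were 19 members, 15 of them in the direction of the virgin males, and 4428 transcripts in all. The direction of the virgin males was kept by 34 of the 80, and the median size of the difference, 0.27, was close to the 0.28 over all transcripts.

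The largest female differences were 1.01 for FBtr0162572 and -1.03 for FBtr0165148, at adjusted p of 0.118 and 0.116 in limma's test. FBtr0162572 ran against the list: it is lower in Punta Prieta virgin males, and among mated females it stood at 8.96 to 10.80 in Las Bocas and 9.98 to 11.52 in Punta Prieta. FBtr0164659 and FBtr0164794 followed at 0.64 and -1.02, at adjusted p of 0.144 and 0.118. These sizes rest on the 3 Las Bocas female arrays of low sex score. With all 11 arrays, 11 of the 55 lower transcripts were below -0.5 in mated females, and without the 3 arrays 1 was. The median size over all transcripts moved from 0.28 to 0.16 without them, and 0 members were called again. The part that these arrays' other differences had in the female values was not tested.

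Whether the populations differed more in mated males than in mated females is the test behind the name of the list. It holds the Punta Prieta female arrays that entered the rule through the limit on mating, so it too is only partly independent of the choice. The 3 Las Bocas female arrays of low sex score are also part of it. The difference between the sexes had the list's direction for 69 of the 80 transcripts, with a median of 0.44 in that direction. Over all transcripts its median was -0.063 and its median size 0.23. None of the 80 passed limma's test at an adjusted p of 0.05, where 0.0138% of all transcripts were called more positive in males and 0% more negative. At an unadjusted p under 0.05 there were 28 members, all in the list's direction, and 2119 transcripts in all. The smallest adjusted p among the members was 0.112. A male difference past the threshold beside a female one short of it is therefore not shown, transcript by transcript, to be a difference between the sexes in mated flies.

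The members with the largest such differences were FBtr0167236 and FBtr0168099 in the positive direction, at 1.12 and 0.89, and FBtr0162572 and FBtr0174094 in the negative, at -1.29 and -1.02. Their adjusted p in limma's test were 0.194, 0.295, 0.257 and 0.194. FBtr0168099 averaged 11.52 in Las Bocas and 11.57 in Punta Prieta mated agria males, and 11.73 and 10.90 in the females. FBtr0162572 averaged 10.94 and 10.66 in the males and 9.89 and 10.91 in the females. For both, the female difference was thus the larger part. The 3 Las Bocas female arrays of low sex score had the highest FBtr0168099 and the lowest FBtr0162572 levels of their group. For FBtr0167236 the 95% interval ran from 0.52 to 1.72 before adjustment, and its mated agria females stood at 6.40 to 7.23 in Las Bocas and 6.42 to 6.83 in Punta Prieta. Without the Punta Prieta 15 day male array, replicate 1, the same difference was 1.37 at an adjusted p of 0.0093, so the call for this transcript turned on that array. For FBtr0174094 it was -1.20 at an adjusted p of 0.0343 without the Punta Prieta 15 day female array, replicate 3. Across the list, the male difference was larger in size than the female one for 56 of the 80, and the signs were opposite for 46.

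**Figure D4:**
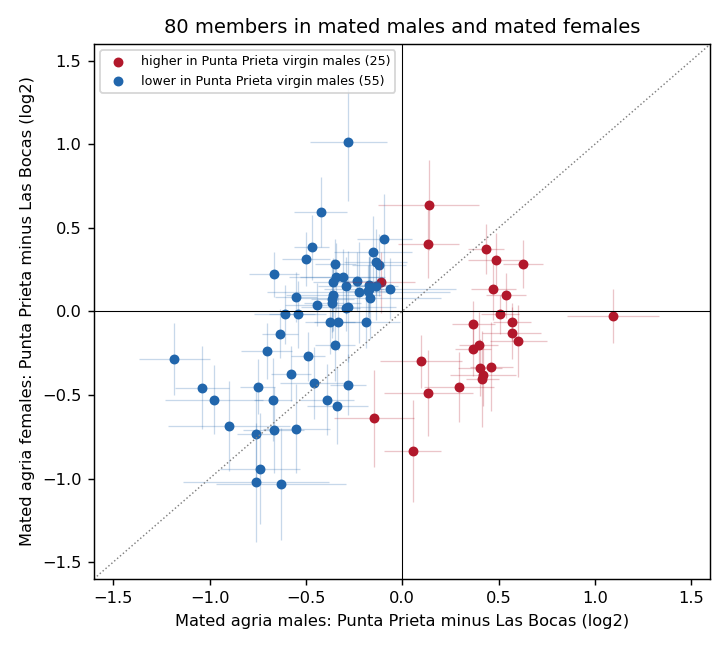
Population difference (Punta Prieta minus Las Bocas, log2) of the 80 transcripts in mated agria males (horizontal axis) and mated agria females (vertical axis), with standard errors from limma as bars; red marks the 25 higher and blue the 55 lower transcripts of the list. In males 78 of 80 lie on their own side of 0, and in females 34 of 80 do, with a wide vertical spread.

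Mated organ pipe males were not used by the rule, but Las Bocas gave only 1 such array against 11 from Punta Prieta. The lone array was assumed to vary like the other mated male groups, so every standard error and p here borrows its spread from them and has no replicate check in Las Bocas. The direction of the virgin males was kept by 65 of the 80 transcripts, 20 of the 25 higher and 45 of the 55 lower ones, with a median of 0.41 in that direction. At an unadjusted p under 0.05 there were 27 members, all in their direction, and 948 transcripts in all. After adjustment 1 member passed limma's test, among the lower ones, where 0.00688% of all transcripts were called lower and 0% higher.

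That member was FBtr0170548. The lone Las Bocas array stood at 9.78, and the 11 Punta Prieta arrays ran from 7.66 to 8.38, with a median of 7.95. The difference was -1.84 with a standard error of 0.27, a fold of 3.57, at an adjusted p of 0.0177 in limma's test. FBtr0174584 stood at 11.98 against 10.33 to 10.92, a difference of -1.25 at an adjusted p of 0.0537. In the higher direction FBtr0167236 and FBtr0163968 had the largest values, 0.86 and 0.85, at adjusted p of 0.880 and 0.998 in limma's test, so neither passed.

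The Punta Prieta group of this comparison holds the array whose sex score went against its label. Without it 69 of the 80 transcripts kept their direction and 9 passed, all in their direction, among 50 transcripts in all. FBtr0174584 was then at -1.21 with an adjusted p of 0.0041. That array had a score over the list of -0.12, outside the range of 0.069 to 0.53 of the other 42 Punta Prieta male arrays and within the female ranges of -0.14 to 0.098 in Punta Prieta and -0.19 to 0.098 in Las Bocas. Its FBtr0167236 level of 6.47 lay below the 7.50 to 8.49 of the other 10 arrays of its group. The array labelled as a mated Las Bocas female had a score of 0.15 and a level of 8.36, beside 6.28 to 7.37 on the other 26 Las Bocas female arrays. Its score lay within the range of the 42 Punta Prieta male arrays but below the 0.19 to 0.40 of the 10 mated organ pipe ones, and its level lay within the range of those 10.

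Diet and development time were then compared within the 53 virgin male arrays, because the rule averaged over them. These are the same arrays that chose the members, by another contrast. Under equal and independent errors, the correlation of the estimate with the difference that chose the members would be -0.055 for the product of population and diet and -0.051 for diet. It would be 0 for development time and for its product with population. The difference between the populations was not found to depend on the diet for any transcript: 0 of the 80 members and 0% of all transcripts passed limma's test for the product of population and diet. At an unadjusted p under 0.05 there were 2 members and 520 transcripts in all. The 95% interval of this product lay within 0.3 log2 units of 0 for 12 of the 80, so for most a dependence of that size cannot be told from its absence. Its median size was 0.14 among the members and 0.093 over all transcripts.

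Diet itself was compared over the average of the populations. Of the 80, 3 rose on organ pipe relative to agria, where 1.36% of all transcripts passed in either direction, 193 of them higher on organ pipe and 5 lower. All 3 belong to the 55 transcripts that are lower in Punta Prieta males. FBtr0162572 was 0.69 higher with a standard error of 0.16, at an adjusted p of 0.0165 in limma's test, and FBtr0173046 0.45 higher with a standard error of 0.11, at 0.0176. In Las Bocas virgin males FBtr0162572 averaged 11.26 ± 0.31 (SD, n = 13) on agria and 12.04 ± 0.40 (SD, n = 13) on organ pipe. In Punta Prieta it averaged 10.69 ± 0.58 (SD, n = 12) and 11.51 ± 0.83 (SD, n = 15). For both, the adjusted p was above 0.05 without replicate 1, 2 or 3 of every group, at 0.0597 to 0.741 and 0.075 to 0.41. For 52 of the 80 the interval of the diet difference lay within 0.3 log2 units of 0.

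Development time called none of the members, 0 of 80, and 0% of all transcripts by limma's test. At an unadjusted p under 0.05 there were 12 members and 1810 transcripts in all. For 78 of the 80 the 95% interval of the change per day stayed within 0.3 log2 units, and the median size of the slope was 0.039 per day among the members and 0.030 over all transcripts. The population difference was also not found to change with development time, with 0 of 80 members and 0% of all transcripts past the threshold. There 8 members and 637 transcripts had an unadjusted p under 0.05. The list's direction here is a population difference that grows with the days, and 1 of those 8 had it. Of all 80, 30 had that direction, with a median of -0.038 per day. The interval lay within 0.3 per day for 63 of the 80. The arrays run from 14 to 18 days, so 0.3 per day is a looser limit over that span than 0.3 was for diet.

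Within groups the members varied more from array to array than transcripts in general. Their SD had a median of 0.29 in virgin males, beside 0.24 over all transcripts, and of 0.24 in mated agria males, beside 0.18. In virgin females the 2 medians were closer, at 0.28 and 0.26. The virgin male arrays chose the members, so the SD there only describes the list. How far the members varied together within groups is likewise only described. Over the 53 virgin male arrays, after subtracting the mean of each group, the median Pearson r between 2 higher transcripts was 0.078, between 2 lower ones 0.037 and between a higher and a lower one -0.076. All pairs of the 8481 transcripts inside the limits had a median of 0.015. These correlations describe arrays that share their normalization and are too weak to be read as a finding.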

How the data were processed

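The authors deposited log2 expression values made with RMA, according to the submitters' processing notes. RMA corrects background, equalises array distributions and summarises probes. Neither its version nor its settings is given in the sources used here. The deposited values did not have equal distributions: array medians ran from 11.24 to 11.50 and array SDs from 1.60 to 1.90. The cause was not tested. RMA hides changes in total RNA and compresses differences of dim transcripts. Scanner signals and slides were not analysed here, so slide effects were not tested.

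Titles gave each array its group; the descriptions of 3 arrays contradict them, in the day (15 against 16) for a virgin Las Bocas agria female, replicate 3, and in population, sex and mating for both mated Las Bocas organ pipe females. The 80 members were found by the stated rule. The members and lists were chosen with earlier results of these data known. Differences were tested with limma 3.58.1 in R 4.3.3 (lmFit and eBayes) over all 14528 transcripts, with Benjamini-Hochberg adjustment over all of them and a threshold of 0.05; the procedure was tested on simulated data. Virgin male fits held development time as a linear term. Whether replicates are separate cultures is not stated in the labels. The p-values therefore cover only the spread between arrays, whose number limits the precision. Against 15130 reference genes, 0 of the 14528 IDs found a match. Named transcripts are, per comparison, at most the 2 largest differences in each direction among those past the threshold, or among all members where fewer passed, plus the 2 highest and 2 lowest in virgin males and those against their direction. Alternatives covered scaling, dim transcripts, variance model, array weights, other sets of arrays and a replicate block.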

Additional observations from a re-analysis of the deposited data

Results flagged for a closer look

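Among 36 groups of 4 to 10 arrays looked at, 3 held an array far from the others by a gap test that chance alone passes in about 1 of 20 groups. The FBtr0167236 level of the Punta Prieta mated agria male array of 15 days, replicate 1, was 6.92, and the other 4 ran from 8.01 to 8.38. That transcript stood at 7.23 on the Las Bocas mated agria female array of 16 days, replicate 2, and at 6.40 to 6.65 on the other 5. The array score of the Punta Prieta mated organ pipe female array of 15 days, replicate 1, was -0.11, and the other 6 ran from -0.047 to -0.012.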

How the results depend on the processing

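The number of members called in mated agria males, 17, was 41 with array weights, when 1073 of all transcripts passed. With 1 array left out in turn it was 6 to 26, when 45 to 620 of all transcripts passed. The median in the list's direction stayed between 0.37 and 0.43 over those 10 fits. In mated agria females 0 became 23 with array weights, 17 in a fit of all 137 arrays and 22 in a fit of all arrays but the 2 on the side of the other sex, where 4729, 3555 and 5207 of all transcripts passed, and it was 0 to 0 with 1 array left out. For the difference between the sexes 0 became 21, 1 and 4 under the same settings. With 1 array left out it was 0 to 2, when 2 to 58 of all transcripts passed. In mated organ pipe males 1 became 3 after quantile normalization, 0 without the dimmest 25% of transcripts, 20 with array weights, 2 with all 137 arrays, 2 with all but the 2 and 9 without the array on the side of the other sex. For diet 3 became 6 with array weights and 0 with the 15 and 16 day arrays alone. With 1 replicate number left out it was 0 to 4, when 0 to 232 of all transcripts passed. Where no number over all transcripts stands beside a count of members, here or with the replicate block below, nothing is read from that count. The list itself kept 35 to 74 of its 80 members with 1 replicate number left out. FBtr0163190 in mated agria males turned from -0.11 to 0.024 without the Punta Prieta 15 day array, replicate 1, and ran from -0.21 to 0.024 with 1 array left out. Apart from the main settings, single named transcripts gave 385 results on the same side of the threshold, 27 that came to pass, 23 that no longer passed and that 1 reversal. The fits of all arrays without the 2 were added after seeing the data, and the cause of these shifts was not tested.

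With the replicate number as a block, 9 members passed in mated agria males. Same-numbered arrays showed no consistent pairing: over 27 pairs their correlation ran from -0.468 to 0.605, with 10 above 0.1. Whether some of them share a culture was not tested.

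The number of arrays limits the mated comparisons, and the lone Las Bocas mated organ pipe male array has no spread of its own.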
